A study of Homo sapiens with 12 samples.

Results

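The 10 genes described here make up the profilin, cofilin and ROCK branch of actin control, namely *PFN1*, *PFN2*, *CFL1*, *CFL2*, *DSTN*, *ROCK1*, *ROCK2*, *LIMK1*, *LIMK2* and *RHOA*. They were taken by symbol from the gene tables of 2 kinds of human neurons, and each symbol matched 1 identifier in each table. The iMN table lists 16406 genes and the i3N table lists 19016, and 16093 genes are in both, all 10 members among them. iMNs are motor neurons made with small molecules from an iPSC line of the NINDS repository that expresses Td-Tomato from the HB9 promoter, and they were sorted on Td-Tomato. i3Ns are glutamatergic neurons, labelled cortical, made from H1, an established human ES cell line, by doxycycline-inducible NGN2. Each cell type had 3 libraries with a scrambled shRNA (SCR) and 3 with an shRNA against *SMN1* and *SMN2* (*SMN*-KD), 12 libraries in all. Both shRNAs came from the same doxycycline-inducible lentiviral vector, so SCR and *SMN*-KD neurons alike carried virus, TagRFP and doxycycline. The value given for each gene is the authors' mean normalized count, that is, counts divided by a size factor for each library and averaged over the 6 libraries of a cell type, SCR and *SMN*-KD together. Values per library were not analysed here, so the change of these genes with *SMN*-KD, the level of *SMN1* and *SMN2* in each library and any SD between replicates are not given. No difference below carries a test, since each cell type has 1 pooled value per gene.

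Actin filaments turn over in growth cones, axons and synapses, and the products of these genes set the pace. Profilins bind actin monomers and hand them to formins and ENA/VASP proteins, which add them to filament ends, while the ADF/cofilins sever filaments and free monomers from them. RHOA is a small GTPase that activates the ROCK kinases. ROCKs raise myosin activity and activate the LIM kinases, and LIM kinases switch cofilins off by phosphorylating a single serine near the start of the protein. In neurons this branch is best known for growth cone collapse and for limiting axon regrowth. SMN binds profilin, and mutations of *PFN1* cause familial ALS, which is why the branch is of interest in motor neurons.

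The cell type labels were set against marker genes. Of the 7 motor neuron markers, all were listed in both tables, and their mean normalized counts summed to 14287 in iMNs and 25230 in i3Ns. The transcription factors that define motor neurons were higher in the i3N table, *MNX1* (HB9) at 2279 against 430, *ISL1* at 14299 against 1663, *ISL2* at 3558 against 70.6 and *LHX3* at 230 against 15.1. Genes of acetylcholine handling did not follow them, with *CHAT* at 533 in iMNs and 527 in i3Ns and the choline transporter *SLC5A7* at 8460 and 2472. The vesicular glutamate transporters *SLC17A6* (593 in iMNs and 11237 in i3Ns) and *SLC17A7* (50.1 and 6490) were higher in the i3N table. The glutamatergic markers, 5 of 7 listed in iMNs and 6 in i3Ns, summed to 4214 and 24510. The motor neuron factors therefore do not separate the tables in the direction of the labels, and the tables are called iMN and i3N below as they were deposited. All 6 general neuronal markers were listed in both tables, with sums of 337487 and 526606. The neurofilament gene *NEFL* alone stood at 119522 and 349907, and *TUBB3* was also higher in the i3N table (58362 and 70054). In contrast, *MAP2*, *SNAP25*, *SYP* and *RBFOX3* were lower in the i3N table, *SNAP25* at 18426 and 4847. Of the 7 glial markers 3 were listed in iMNs and 4 in i3Ns, with sums of 408 and 1507, and *GFAP*, *AQP4* and *SOX10* were in neither. Mesenchymal markers summed to 2921 and 7166, proliferation markers to 213 and 1145, and pluripotency markers to 215 and 4238, the last almost wholly from *LIN28A*. The part of such other cells in the levels below was not tested, and in these bulk samples fewer cells of a type and less RNA per cell cannot be told apart.

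Taken as a family, the ADF/cofilins were the most abundant of the branch, mostly through *CFL1*. *CFL1* (ENSG00000172757, minus strand of chromosome 11 of GRCh38, 65823022 to 65862026) encodes the widely expressed cofilin, *CFL2* (ENSG00000165410, minus strand of chromosome 14, 34709113 to 34714823) the muscle-type cofilin, and *DSTN* (ENSG00000125868, plus strand of chromosome 20, 17570075 to 17609919) the actin depolymerizing factor ADF. The 3 proteins are close relatives, with 80.7% identical residues between CFL1 and CFL2, 71.5% between CFL1 and DSTN and 69.1% between CFL2 and DSTN. The first 30 coding bases of each are shown because they hold the serine that LIM kinases phosphorylate. It is residue 3, counted from the start methionine, and its codon is in capitals.

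CFL1: atggccTCCggtgtggctgtctctgatggt

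CFL2: atggctTCTggagttacagtgaatgatgaa

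DSTN: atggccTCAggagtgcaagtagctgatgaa

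In each of these genes the start codon alone lies in exon 1 and the other 27 bases in exon 2. On chromosome 11 the blocks of *CFL1* are 65858097 to 65858099 and 65856216 to 65856242. Those of *CFL2* are 34714538 to 34714540 and 34713535 to 34713561 on chromosome 14. Those of *DSTN* are 17570209 to 17570211 and 17600738 to 17600764 on chromosome 20. The serine codon is written differently in all 3 genes, and it follows the same intron position in each.

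*CFL1* had a mean normalized count of 25935 in iMNs and 24583 in i3Ns. Longer transcripts collect more fragments, so genes were compared with each other only after dividing by the length of the reference transcript (MANE Select, GENCODE release 44). On this scale *CFL1* reached 20831 mean normalized counts per kb in iMNs and 19745 in i3Ns, above 99.7% of the genes of either table. It was the highest of the 10 genes in both. *DSTN* had 9878 and 8678 mean normalized counts, which is 2901 and 2549 per kb, and was rank 5 of the 10 in both tables, but rank 3 in iMNs and 4 in i3Ns per kb of coding part. *CFL2* had 2998 and 2366, or 696 and 549 per kb. Within the family, *CFL1* made up 85.3% of the length-scaled level in iMNs and 86.4% in i3Ns, *DSTN* 11.9% and 11.2%, and *CFL2* 2.85% and 2.40%. The order of the 3 was the same when only the coding part was used as the length, although the share of *CFL1* was then 66.7% in iMNs and 68.9% in i3Ns and that of *CFL2* 7.71% and 6.63%.

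**Figure D1:**
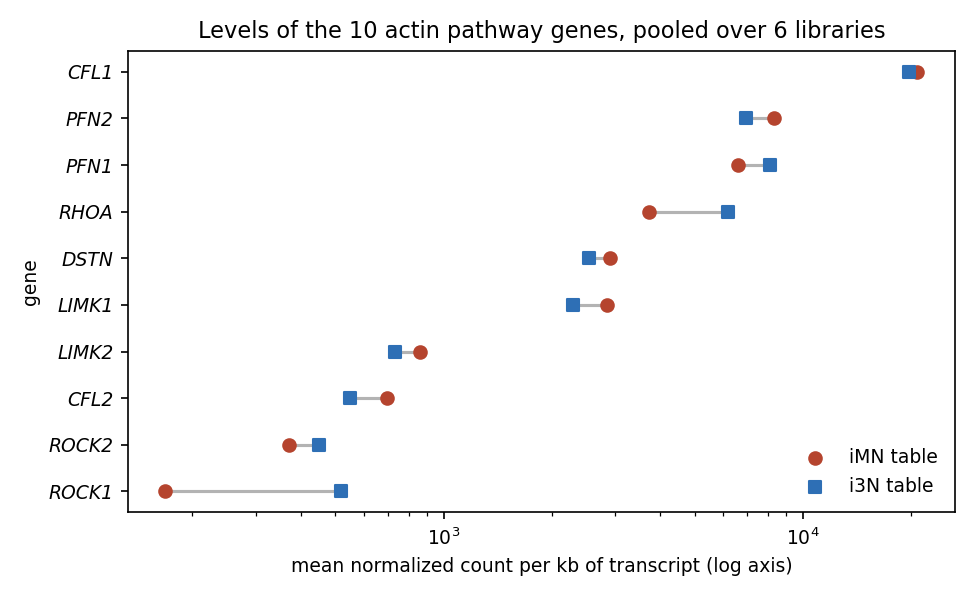
Mean normalized count per kb of reference transcript (horizontal log axis) of each of the 10 genes (vertical axis), with circles for the iMN table and squares for the i3N table, each the authors' mean over 6 libraries with no error available. *CFL1* lies at the top with 20831 and 19745, *ROCK1* has the widest gap between the tables (168 and 518), and most other genes lie close together.

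Both profilins were abundant. *PFN1* (ENSG00000108518) lies on the minus strand of chromosome 17 from 4945652 to 4949061 and encodes the profilin found in nearly all cells. *PFN2* (ENSG00000070087), on the minus strand of chromosome 3 from 149964904 to 150050788, encodes the profilin enriched in neurons, and 61.4% of the 140 residues of the 2 proteins are identical. *PFN2* had a mean normalized count of 17084 in iMNs and 14249 in i3Ns, and *PFN1* one of 5330 and 6526. Per kb, *PFN2* stood at 8346 and 6961 and *PFN1* at 6605 and 8087, so that *PFN2* led in iMNs with 55.8% of the family and *PFN1* in i3Ns with 53.7%. This order depended on the length taken. The reference transcript of *PFN2* has 2047 bases and that of *PFN1* 807, while both coding parts have 420. Per kb of coding part, *PFN2* was ahead in both tables, with 76.2% of the family in iMNs and 68.6% in i3Ns. The *PFN2* share was lower in i3Ns than in iMNs on either length, and no replicate error is available to set it against.

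The LIM kinases together were rarer than their cofilin substrates. *LIMK1* (ENSG00000106683, plus strand of chromosome 7, 74082933 to 74122525) and *LIMK2* (ENSG00000182541, plus strand of chromosome 22, 31212239 to 31280080) encode the LIM kinases. *LIMK1*, the form typical of brain, had a mean normalized count of 9553 in iMNs and 7679 in i3Ns, and *LIMK2* one of 3155 and 2695. Per kb these were 2847 and 2289 for *LIMK1* against 860 and 735 for *LIMK2*, so *LIMK1* gave 76.8% of LIM kinase transcripts in iMNs and 75.7% in i3Ns. The proportion between the 2 LIM kinases was thus nearly the same in both tables. Summed per kb, the 3 ADF/cofilins were 6.59 times as abundant as the 2 LIM kinases in iMNs and 7.55 times in i3Ns, and 11.9 and 13.4 times per kb of coding part.

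The ROCK kinases had the lowest levels per kb of the 10 genes. *ROCK1* (ENSG00000067900) covers 20944612 to 21111813 on the minus strand of chromosome 18, and *ROCK2* (ENSG00000134318), the form that prevails in brain, covers 11179759 to 11348330 on the minus strand of chromosome 2. Their proteins of 1354 and 1388 residues share 66.9% of aligned residues. *ROCK1* had a mean normalized count of 1589 in iMNs and 4894 in i3Ns, while *ROCK2* had 3106 and 3764. Per kb this is 168 and 518 for *ROCK1*, and 372 and 451 for *ROCK2*. *ROCK1* was the lowest of the 10 in iMNs, above only 38.9% of the 15713 genes with a length, and above 68.6% of 18138 genes in i3Ns. *ROCK2* made up 68.9% of the ROCK level in iMNs and 46.5% in i3Ns, so the leading ROCK transcript was a different one in each table.

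*RHOA* (ENSG00000067560, minus strand of chromosome 3, 49359139 to 49412998), the GTPase upstream of the ROCKs, had a mean normalized count of 6739 in iMNs and 11149 in i3Ns. Per kb it stood at 3734 and 6177 and was rank 4 of the 10 genes in both tables, but rank 5 in iMNs and 3 in i3Ns per kb of coding part. Its close relative *RHOB* was higher per kb, with 6264 and 9694. *RHOC*, the remaining relative that activates ROCKs, had 1179 and 2069.

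**Figure D2:**
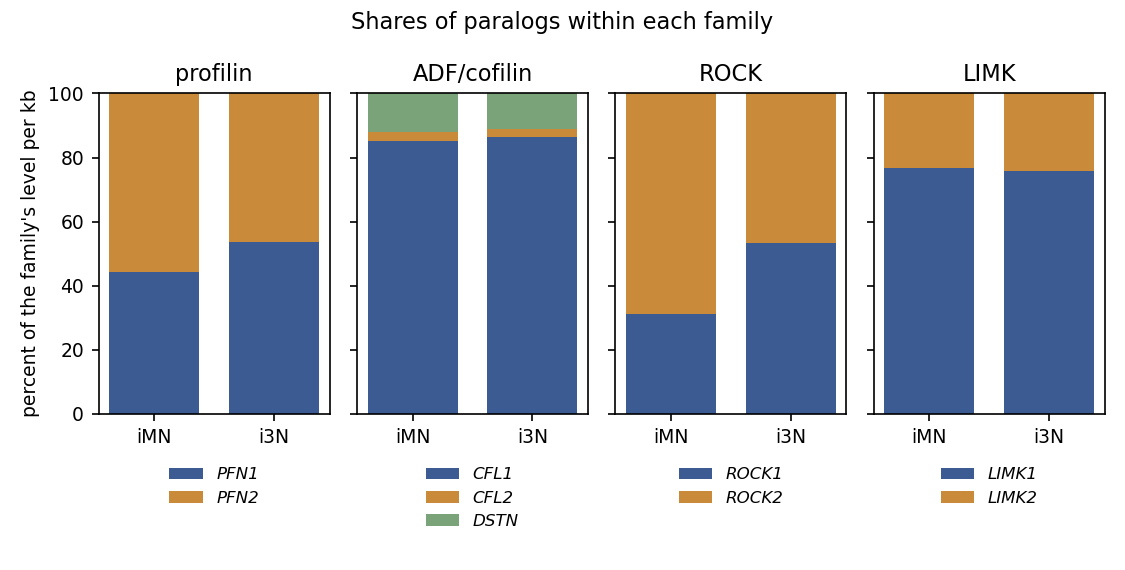
Share of each paralog in its family's summed level per kb of reference transcript (vertical axis, percent), with 1 bar for iMNs and 1 for i3Ns in each family, from means over 6 libraries. *ROCK1* holds 31.1% in iMNs and 53.5% in i3Ns and *PFN1* 44.2% and 53.7%, while the ADF/cofilin and LIMK bars look alike in both tables.

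The next comparison asked which of the 10 genes differ in level between the 2 kinds of neurons, with SCR and *SMN*-KD libraries pooled. Any response to *SMN*-KD that differs between the cell types is mixed into these ratios and cannot be separated from them. The tables were normalized separately, so each was first scaled to a sum of 1e6 over the 16093 genes in both. The comparison took the 12071 genes whose mean reached 100 in each table, and all 10 members passed this minimum. Cell type, stem cell line and differentiation protocol differ together here and cannot be told apart.

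*ROCK1* was the only member that differed by 2-fold or more. Its scaled level was 36.8 per 1e6 counts in iMNs and 109 in i3Ns, a 2.96-fold higher level in i3Ns. Of all genes 6.67% were at least 2-fold higher in i3Ns, so 1 of 10 members is near that background. A larger ratio than that of *ROCK1* was found for 2.52% of the genes. *ROCK2* was 1.17-fold higher in i3Ns, and the ratio of *ROCK1* was 2.54 times that of *ROCK2*. The iMNs were sorted in a medium with a ROCK inhibitor, and its part in the level of *ROCK1* was not tested.

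*RHOA* came next, at 156 per 1e6 counts in iMNs and 249 in i3Ns, a 1.59-fold higher level in i3Ns that 13.6% of all genes exceeded. *RHOB* (1.49-fold) and *RHOC* (1.69-fold) were also higher in i3Ns. *PFN1* was 1.18-fold higher in i3Ns, with 123 and 145 per 1e6 counts. The members that were higher in i3Ns were therefore RHOA, both ROCKs and 1 profilin.

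The 6 other members were lower in i3Ns, all by small factors. *CFL2* was 1.32-fold higher in iMNs, *LIMK1* 1.29-fold, *PFN2* 1.25-fold, *LIMK2* 1.22-fold, *DSTN* 1.18-fold and *CFL1* 1.10-fold. No member was at least 2-fold higher in iMNs, against 8.65% of all genes. A factor under 1.5 was found for 8 of the 10 members and for 66.3% of all genes. The median log2 ratio of the members was -0.19 and that of all genes 0.045.

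**Figure D3:**
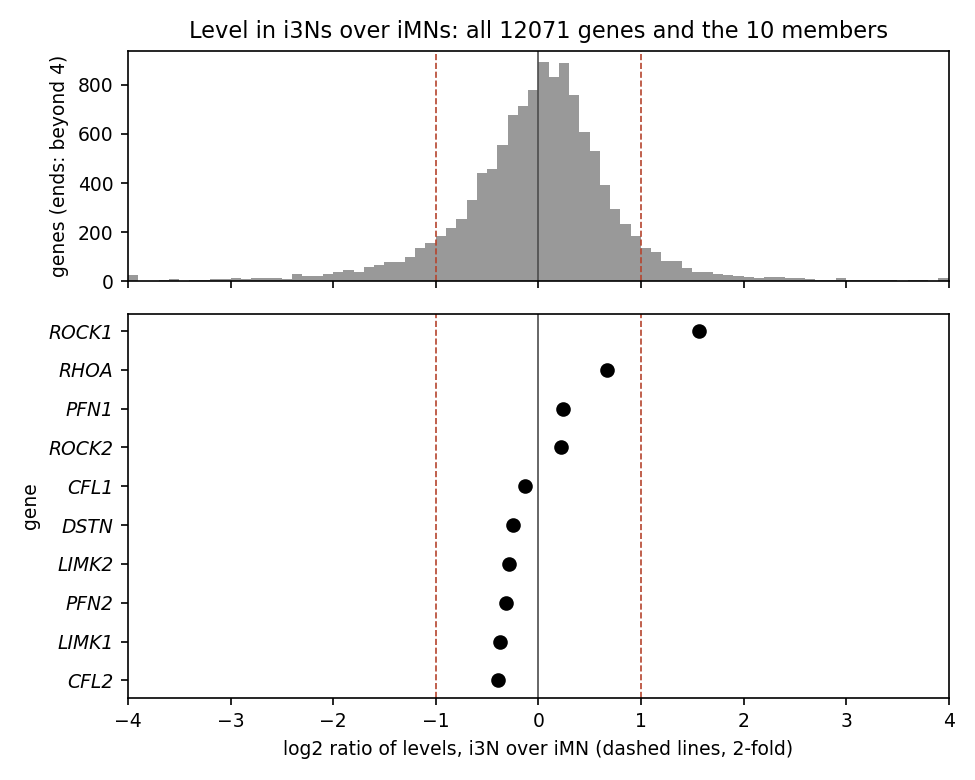
Upper panel, number of genes (vertical axis) by log2 ratio of scaled level, i3N over iMN (horizontal axis), for the 12071 genes that reached a mean of 100 in each table, with ratios beyond 4 in the outermost bins. Lower panel, the same ratio for each member, where *ROCK1* (1.57) alone lies past the dashed 2-fold line, *RHOA* follows at 0.67 and the lowest is *CFL2* at -0.40.

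The values were also summed over each family. The scaled level per kb of the 2 ROCKs together was 1.73-fold higher in i3Ns. The 2 profilins together stood at 0.969 of their iMN level, the 3 ADF/cofilins at 0.900 and the 2 LIM kinases at 0.785. From summed counts without length, the profilins stood at 0.892, close to the ADF/cofilins at 0.883. On that scale the LIM kinases stood at 0.786 and the ROCKs were 1.77-fold higher in i3Ns. LIM kinase transcripts outnumbered those of the ROCKs 6.86 to 1 in iMNs and 3.12 to 1 in i3Ns, and 5.78 and 2.54 to 1 per kb of coding part. Cofilin transcripts outnumbered profilin transcripts 1.63 to 1 in iMNs and 1.52 to 1 in i3Ns, and 1.46 and 1.45 to 1 per kb of coding part.

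Reads of several members can be split with other genes, either copies elsewhere in the genome or genes that overlap the member. This bears on how far the separate values can be trusted. For each reference transcript, the stretches of 31 bases that also occur in a transcript of another gene on either strand were counted. None were found for *PFN2* and *LIMK1*, 0.825% for *LIMK2*, 1.06% for *ROCK2* and 1.82% for *CFL2*. The share was 9.21% for *DSTN*, 16.4% for *CFL1*, 19.2% for *ROCK1*, 30.8% for *PFN1* and 34.3% for *RHOA*. For *RHOA* nearly all of it came from 1 gene whose GENCODE identifier is in neither table (ENSG00000290318, 33.5%). The authors' transcript annotation is not given, so whether reads of *RHOA* were split with this gene is not known. For *PFN1* the pseudogene *PFN1P1* (19.2%) and *ENO3*, the muscle enolase (10.4%), gave most of it. The count takes both strands and does not tell a copy from a gene that overlaps the member on the opposite strand. Which of these applies to *ENO3*, or to *SNX32* below, was not examined.

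The *ROCK1* stretches were shared mainly with its partial copy *ROCK1P1* (16.9%). *ROCK1P1* had a mean normalized count of 79.2 in iMNs and 65.4 in i3Ns, 4.98% and 1.34% of *ROCK1*, so it was not higher in i3Ns as *ROCK1* was. With the counts of *ROCK1P1* added to *ROCK1*, the log2 ratio was 1.52 in place of 1.57. Of the *CFL1* copies, *CFL1P1* was in both tables (22.7 and 23.0) and *CFL1P5* (5.52) and *CFL1P8* (4.11) in the i3N table. The gene that shared the most stretches with *CFL1* was *SNX32* (7.16%), with mean normalized counts of 269 in iMNs and 140 in i3Ns. *DSTNP2* stood at 143 and 106, 1.45% and 1.23% of *DSTN*, and *PFN1P2* at 14.3 in i3Ns. All of these pseudogene rows were small beside their parent genes.

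The other genes of actin control gave the surroundings of the 10. Of 51 such genes, 50 were in the iMN table and 50 in the i3N table, and 45 reached a mean normalized count of 100 in both. None of the 45 was at least 2-fold higher in i3Ns (6.67% of all genes) and 2 were at least 2-fold higher in iMNs (8.65% of all genes). Their median log2 ratio was 0.020. By this measure *ROCK1* had the largest ratio toward i3Ns among the members and the 45 genes together. That ranking rests on the minimum of 100. *MYL9* (5.74-fold), *TESK2* (3.83-fold) and *DIAPH3* (3.39-fold) had larger ratios toward i3Ns at low counts and were left out by it.

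*PAK3*, a brain kinase that RAC1 and CDC42 activate, was 3.86-fold higher in iMNs, with mean normalized counts of 28463 and 7672. *TMSB4X*, which keeps actin monomers in store, was 2.13-fold higher in iMNs (64031 and 31226). Next in that direction was *EVL*, an ENA/VASP protein of growth cones, at 1.95-fold. Toward i3Ns the largest ratios were those of *RND3* (1.85-fold), an inhibitor of ROCK1, *VASP* (1.79-fold) and *DIAPH1* (1.76-fold), a formin that RHOA activates.

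Per kb, the highest of the 51 were thymosins and actins, which stood above all 10 members. In iMNs *TMSB10* reached 113179, *TMSB4X* 102943 and *ACTB*, beta-actin, 98357 per kb. In i3Ns *ACTB* led with 105287, followed by *TMSB10* with 89034 and *ACTG1*, gamma-actin, with 75880. Actin transcripts outnumbered those of the ADF/cofilins 6.504 to 1 in iMNs and 7.93 to 1 in i3Ns per kb of transcript, and 3.35 and 4.17 to 1 per kb of coding part.

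By role, the 2 actins had a median log2 ratio of 0.16, the 6 monomer-binding genes -0.30, and the 4 measured genes among the cofilin phosphatases and their cofactor *WDR1* 0.30. The slingshot phosphatases *SSH1* and *SSH2*, which undo the work of the LIM kinases on cofilin, were each 1.33-fold higher in i3Ns, whereas *PDXP*, or chronophin, another cofilin phosphatase, was lower (fold 0.787). *TESK1*, a further cofilin kinase, was also lower in i3Ns (0.530). Summed per kb, as was done for the LIM kinases, the slingshots and chronophin together stood at 0.977 of their iMN level. From summed counts without length they stood at 1.19. The 9 measured ROCK substrates and myosin genes had a median of -0.10, the 6 formins and ENA/VASP genes 0.16 and the 6 genes of RAC1, CDC42 and the PAKs 0.089. Among other profilins, *PFN4* stood at 11.0 and 14.0 mean normalized counts, and *PFN3* was in neither table.

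**Figure D4:**
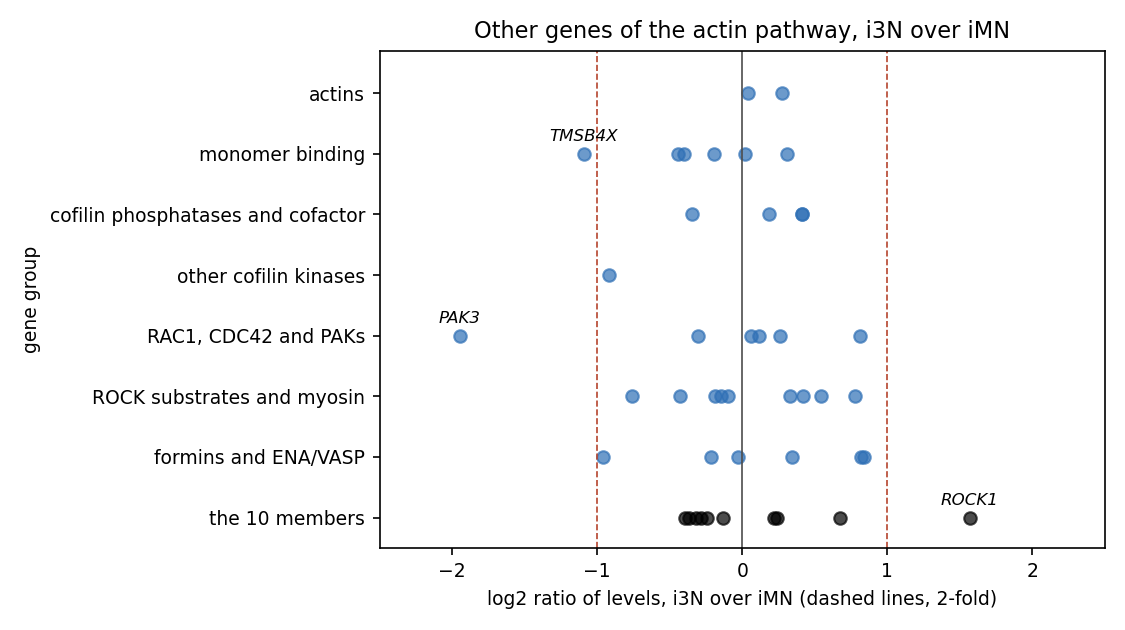
Log2 ratio of scaled level, i3N over iMN (horizontal axis), with 1 point for each gene that had a mean of at least 100 in both tables, by gene group (vertical axis, 1 group of 11 genes not drawn) and with the 10 members in the lowest row. Beyond the dashed 2-fold lines lie *ROCK1* on the i3N side (1.57) and *PAK3* (-1.95) and *TMSB4X* (-1.09) on the iMN side.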

How the data were processed

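Total RNA was depleted of ribosomal RNA and sequenced as paired ends. Adapters were trimmed with fastp, transcripts quantified with Salmon and genes compared with DESeq2 by the authors. Versions, transcript annotation and low-count filter are not given in the sources used here, and hg38 is named in the submitters' processing notes. The deposited signal used here is the mean normalized count over 6 libraries. The other columns, the authors' own fold changes with their errors and p-values, were not used. The planned test of *SMN*-KD against SCR needs values per library and was not run. Depth per library is unknown, and no interval is given. The means summed to 4.33e+07 in iMNs and 4.50e+07 in i3Ns.

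Lengths, positions and coding sequences came from GENCODE release 44 (GRCh38), by Ensembl identifier, with the canonical transcript of each gene. Of the identifiers, 15713 in the iMN and 18138 in the i3N table matched. Proteins were aligned globally after translation (Biopython 1.88, BLOSUM62). Ratios used pandas 2.3.3 after scaling to 1e6 counts. That scaling was run on simulated data, but the error allowed there was too wide to check ratios as small as those of most members. A gene counted as different at 2-fold with a mean of at least 100 in both tables. Named genes were the members, rows named after them, RHOB, RHOC, markers, and the 3 pathway genes highest per kb in each cell type or with the largest ratio each way. *SSH1*, *SSH2*, *PDXP*, *WDR1*, *TESK1*, *PFN3*, *PFN4*, *ENO3* and *SNX32* fall outside this rule and were named after their values were seen. The separate result of 1 list of 11 pathway genes is not reported here. The members and lists were chosen with earlier results of these data known. Alternatives changed the scaling, the minimum, the fold, the length and the handling of pseudogenes and identifiers.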

Additional observations from a re-analysis of the deposited data

How the results depend on the processing

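The number of members at least 2-fold higher in i3Ns was 1 under each of 3 other scalings, and it was 2 with a fold of 1.5, by the lower fold itself. It was also 1 with a minimum mean of 10 or 1000. These minimums could not change it, since the lowest mean of a member was 1589. No member was higher in iMNs by the fold used at any of these settings. Other scalings moved every log2 ratio by the same amount, -0.045 with the median ratio, 0.055 with no scaling and -0.00026 without the 100 most abundant genes. No ratio of a member changed direction or moved by 0.1 or more, also with pseudogene rows added. Summing all identifiers of a symbol could not move a ratio, since each symbol matched 1 identifier in each table. Shares of paralogs moved with the length, by its construction. *PFN2* made up 76.2% of profilin in iMNs and 68.6% in i3Ns with no length or coding length. Without length, *CFL1* made up 66.8% of its family in iMNs and 69.0% in i3Ns, and *DSTN* 25.4% and 24.4%. With coding length, *CFL1* made up 66.7% and 68.9%, and *DSTN* 25.6% and 24.5%. The share of *CFL2*, 2.85% and 2.40% on transcript length, was 7.71% and 6.63% with coding length. Shares of *ROCK2* and *LIMK1* moved by under 5 percentage points. No paired analysis was possible because the columns used carry no replicate number. Replicates were not left out in turn, and other normalizations and low-count filters were not run, for the same reason. Depth is unknown, so the precision of each level is too.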

Other observations

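Among the other actin genes, 5 were in both tables without a mean of 100 in each, and 3 of them, named after their values were seen, were low in iMNs and higher in i3Ns. *MYL9*, a myosin light chain of smooth muscle and fibroblasts, had a mean normalized count of 53.6 in iMNs and 320 in i3Ns. *DIAPH3*, a formin used in cell division, had 16.9 and 59.5, and *TESK2*, a cofilin kinase, 11.1 and 44.01. The mesenchymal marker *ACTA2* (80.9 and 583) and the proliferation marker *MKI67* (28.3 and 522) were higher in i3Ns as well. Each had the largest measured ratio of its marker list. Other markers of these lists differed less, but most were higher in i3Ns too. *TOP2A* was 13.3-fold higher there, *COL1A1* 3.08-fold, *TAGLN* 2.08-fold, *COL3A1* 2.00-fold, *LUM* 1.66-fold and *CCNB1* 1.48-fold. *CDK1* and *DCN* were listed in i3Ns only, and *COL1A2* was lower there (686 and 611). The relation of the markers to *MYL9*, *DIAPH3* and *TESK2* was not tested.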
